A study of Homo sapiens with 12 samples.

Results

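NONO is a nuclear RNA-binding protein, and its contacts with transcripts of the ZNF and ZBTB zinc-finger genes were read from eCLIP peaks. In eCLIP, protein is crosslinked to RNA by UV light and immunoprecipitated, and the bound fragments are compared with an input library. Members were the genes with a symbol of ZNF or ZBTB and a number to which at least 1 peak was annotated under that gene's name alone. ZBTB16 was left out by the rule. This gave 28 genes (22 ZNF, 6 ZBTB) with 320 peaks, of 1689 gene names and 26351 peaks in all. The cells were 22Rv1, an established human prostate cancer line, grown for 40 h and then treated for 4 h with 0.04% DMSO alone, or with the same DMSO and SKBG-1(R), or with it and SKBG-1(S), each compound at 20 µM, before UV at 400 mJ. Each condition used 2 to 3 plates. The 3 groups differed only in the compound, and SKBG-1(R) and SKBG-1(S) are stereoisomers. Each group had replicates 1 and 2, each an immunoprecipitation with its own input, and the 12 libraries yielded 6 lists of peaks. Whether replicates came from separate cultures is not stated, so that p-values cover only the spread between these lists, which may be technical.

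Zinc-finger proteins of the C2H2 kind bind DNA through fingers in which a pair of cysteines and a pair of histidines hold a zinc ion. Many ZNF proteins also carry a KRAB box, which recruits the corepressor TRIM28 and silences transposable elements, and many of their genes sit in clusters on chromosome 19. ZBTB proteins join a BTB domain, which pairs proteins and recruits corepressors such as NCOR and BCOR, to a few fingers. NONO belongs to the DBHS proteins of paraspeckles and also binds nascent transcripts, in large part within introns.

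The 6 lists were of unlike length, and in each group replicate 2 was the longer, from 669 peaks in DMSO replicate 1 to 14847 in SKBG-1(R) replicate 2. Read depth is unknown, since no read counts are in the files, so absence of a peak does not mean absence of contact. All peaks had a log2 enrichment over input of at least 3 and a −log10 p of at least 3, both the authors' values. Of 15 markers of prostate luminal cells and hormone response, 5 held peaks, led by SPDEF with 55 and GRHL2 with 35. Of 17 markers of other cell types, 0 held a peak.

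Sequence under member peaks was read from RefSeq promoter windows and GENCODE 29 transcripts (GRCh38), and 7 of 29 stretches are shown. Of these, 6 carry contacts that recurred in 2 to 4 lists, and the upstream start of ZNF148 is shown because the SKBG-1(R) replicates differed there. The regions with the most lists, in ZNF787 (6 lists) and ZBTB2 (5 lists), are not printed here. Each stretch runs 5′ to 3′ on the transcribed strand, and capitals mark the bases covered by peaks of the most lists. The first 2 are intron next to a start inside ZNF148, at chr3:125357483-125357530 and chr3:125357371-125357479 on the minus strand, the next is the 5′ UTR beside them at chr3:125357210-125357239, and the fourth lies at the upstream start of the gene at chr3:125374845-125374895.
ZNF148 inner intron, 4 lists: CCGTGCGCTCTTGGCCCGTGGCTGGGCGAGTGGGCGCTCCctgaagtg
ZNF148 inner intron, 3 lists: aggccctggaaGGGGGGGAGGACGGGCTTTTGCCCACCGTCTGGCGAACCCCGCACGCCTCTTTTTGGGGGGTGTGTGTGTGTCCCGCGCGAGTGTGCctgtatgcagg
ZNF148 inner 5′ UTR, 4 lists with at most 3 at a base: gggcctcggcggggtcgtctgcggcgGCCG
ZNF148 upstream start, SKBG-1(R) replicate 1: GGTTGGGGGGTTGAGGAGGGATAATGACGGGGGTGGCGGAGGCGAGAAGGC
The other 3 are 30-base stretches of 5′ UTR with contacts in 2 or 3 lists, of ZBTB7A at chr19:4065541-4065570 (minus strand), ZBTB4 at chr17:7479563-7479592 (minus strand) and ZNF580 at chr19:55640944-55640973 (plus strand).
ZBTB7A 5′ UTR, 3 lists: GATTGGCCGCCGGCGGCGGGGGGTGGCGCG
ZBTB4 5′ UTR, 2 lists: GGGCCGGGGCCAGGCGCTGGGGGGGCCAGG
ZNF580 5′ UTR, 3 lists: GGAGCGCCGGCTCCAGGCGGCGGAACCTCc
G and C made up 72.9% and 67.0% of the inner intron sequences of ZNF148, 86.7% of its 5′ UTR stretch and 66.7% of its upstream sequence. In the last, G alone was 58.8% and C 7.84%. The stretches of ZBTB7A, ZBTB4 and ZNF580 were 86.7%, 90% and 80% G and C. The composition of such windows without contacts was not computed, so these shares do not show a trait of NONO contacts.

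NONO contacted few genes of the family, and in most of those it contacted no KRAB pattern was found. Of 550 protein-coding ZNF and ZBTB genes in GENCODE 29, 5.09% held a peak, against 7.09% of 19951 coding genes. ZBTB genes held peaks in 6 of 41 (14.6%) and ZNF genes in 22 of 509 (4.32%). These are counted by symbol, and the 41 include ZBTB8OS, in which 0 fingers were found. A pattern for the KRAB box was found in the proteins of 4 of the 28 members (ZNF316, ZNF337, ZNF398 and ZNF789), and in 283 of the 522 family genes with no peak. Thus 1.39% of genes with the pattern held a peak, and 24 of 263 without it (9.13%). The pattern can miss KRAB boxes, since a stricter one was found in ZNF140 and ZNF324, where this one was not. The 4 members with the pattern held 1 to 3 peaks each. On chromosome 19, which carries 249 genes of the family, 5 members lay (2.01%), and 0 of these 5 had the KRAB pattern. Members had a median of 5 fingers (1 to 30), and family genes with no peak 10 (0 to 36). Expression of these genes was not measured in these files, and its part in which genes held peaks was not tested.

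Contacts were concentrated in a few members. ZNF787 (ENSG00000142409.5, chr19:56087366-56121280) held 88 peaks and ZBTB7A (ENSG00000178951.8, chr19:4044364-4066945) 62, together 46.9% of all 320. ZBTB7A encodes a repressor known for silencing fetal globin. They were followed by ZNF148 (ENSG00000163848.19, chr3:125225561-125375354), which encodes a factor of GC-rich promoters, with 29. ZBTB4 (ENSG00000174282.11, chr17:7459366-7484263), whose protein binds methylated DNA, held 22. ZBTB2 (chr6:151364117-151391548) and ZBTB7B (chr1:155002630-155018522), the second known for directing T cells to the CD4 lineage, held 17 each. ZBTB1 (chr14:64503712-64533690), known from lymphoid development, held 14, and ZNF710 (chr15:90001392-90082206) 12. These 8 genes held 261 peaks (81.6%) and are the members with at least 10 peaks, the minimum for the gene test. The other 20 held 59, from 1 to 8 each.

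ZNF787, ZBTB7A and ZBTB7B were the members with a peak in all 6 lists. ZNF787 held 2 and 13 peaks in DMSO replicates 1 and 2, 4 and 50 under SKBG-1(R), and 2 and 17 under SKBG-1(S). Per 10000 peaks of the list these were 29.9 and 35.3, 20.5 and 33.7, and 16.2 and 42.9, and every pair of groups overlapped. ZBTB7A held 5 and 7, 2 and 28, and 8 and 12 peaks. Its values per 10000 were 74.7 and 19.03 in DMSO, 10.2 and 18.9 under SKBG-1(R), and 64.7 and 30.2 under SKBG-1(S). Both SKBG-1(R) values lay below all others, the upper one just under DMSO replicate 2. ZBTB7B held 1 and 1, 1 and 6, and 1 and 7 peaks, or 14.9 and 2.72, 5.12 and 4.04, and 8.08 and 17.6 per 10000. The DMSO lists spanned those of SKBG-1(R).

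ZNF148 was contacted in 4 lists. It held 0 and 8 peaks in DMSO, 10 and 5 under SKBG-1(R), and 0 and 6 under SKBG-1(S), or 0 and 21.8, 51.2 and 3.37, and 0 and 15.1 per 10000. The highest value and the lowest above 0 were thus the replicates of SKBG-1(R). ZBTB4 had peaks in the replicate 2 lists alone, 4, 11 and 7 for DMSO, SKBG-1(R) and SKBG-1(S), or 10.9, 7.41 and 17.6 per 10000. ZBTB2, whose protein represses genes of the p53 pathway, held 0 and 2, 2 and 5, and 3 and 5 peaks. Per 10000 these were 0 and 5.44, 10.2 and 3.37, and 24.3 and 12.6, with both SKBG-1(S) lists on top. ZBTB1 held 1 and 3, 0 and 4, and 2 and 4 peaks, or 14.9 and 8.16, 0 and 2.69, and 16.2 and 10.1 per 10000, lowest in both SKBG-1(R) lists. ZNF710 held 0 and 1, 3 and 5, and 1 and 2 peaks, or 0 and 2.72, 15.4 and 3.37, and 8.08 and 5.04 per 10000, lowest in both DMSO lists.

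**Figure D1:**
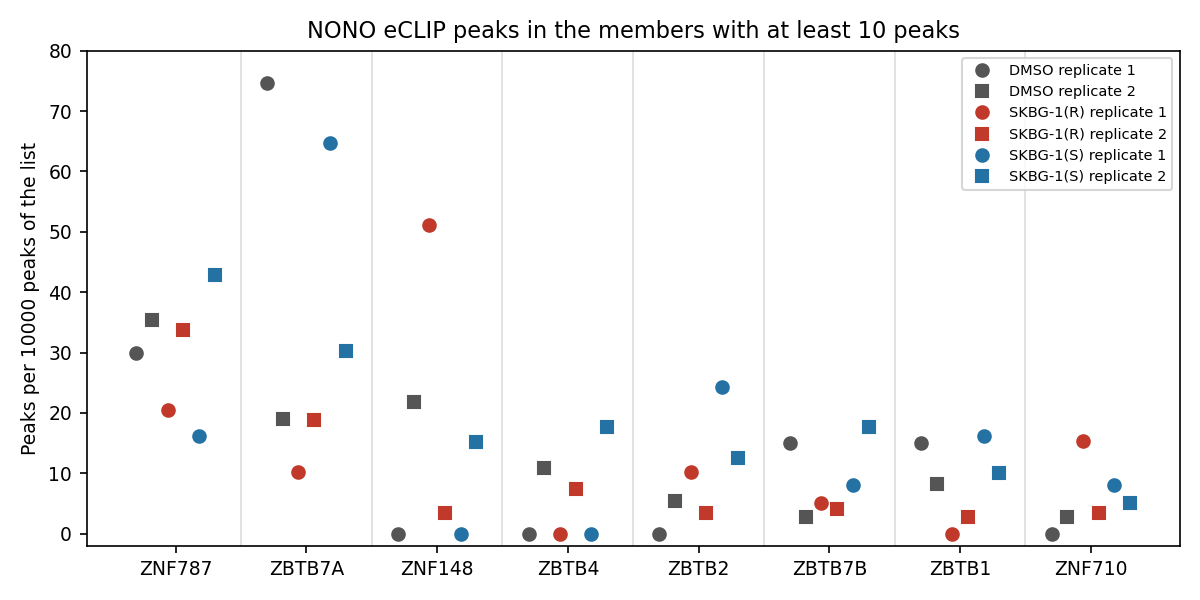
Peaks per 10000 peaks of the list (y axis) in the 8 members with at least 10 peaks (x axis). Each point is 1 list, coloured by treatment, with circles for replicate 1 and squares for replicate 2. ZBTB7A spans 10.2 to 74.7 and ZNF787 16.2 to 42.9, and replicates of a group often stand as far apart as the groups.

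The remaining members held too few peaks for a test. ZNF236 held 8, in both SKBG-1(R) lists (1 and 4) and SKBG-1(S) replicate 2 (3). ZNF609 held 7 (3 and 3 under SKBG-1(R), 1 in SKBG-1(S) replicate 2), and ZNF580 7 (1 in DMSO, 4 in SKBG-1(R) and 2 in SKBG-1(S), all replicate 2). ZNF598, which encodes a ubiquitin ligase that senses collided ribosomes, held 5 peaks, and SKBG-1(R) replicate 2 alone had them. In 9 members all peaks came from 1 list, which was SKBG-1(R) replicate 2, the longest, for 5 of them, SKBG-1(S) replicate 2 for 2, and DMSO replicate 2 (ZNF444) and SKBG-1(S) replicate 1 (ZNF706) for 1 each. A further 29 peaks carried a ZNF name jointly with a neighbour and were left out by the rule. Of these, 27 lay at ZNF580 between positions 55637004 and 55641621 of chromosome 19, where genes overlap and the reads cannot be assigned to 1 gene. They numbered 1 and 1 in DMSO, 2 and 13 under SKBG-1(R), and 5 and 5 under SKBG-1(S), so that ZNF580 would rank among the most contacted members if they were counted.

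Introns held 273 of the 320 member peaks (85.3%), 5′ UTRs 37 (11.6%), coding exons 5 and 3′ UTRs 5. Of the intronic peaks, 115 were in the authors' proximal class, near splice sites, and 158 in the distal class. The same gene could be contacted in more than 1 class of region. ZBTB1 had 12 proximal intron and 2 5′ UTR peaks, and ZBTB2 10 proximal and 7 distal intron peaks, and all peaks of both lay within 2 kb after an annotated transcript start. ZNF580 differed, with 5 peaks in the 5′ UTR and 2 in coding sequence.

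The peaks of ZNF787 ran along the gene only in the replicate 2 lists. In the replicate 1 lists 2, 4 and 2 peaks lay within 2 kb after a transcript start and 0 lay beyond it, in DMSO, SKBG-1(R) and SKBG-1(S). In the replicate 2 lists 5, 10 and 7 lay within that distance and 8, 40 and 10 beyond it. The farthest from the 5′ end of the gene were 22341, 33861 and 29237 nt. These lists are also the longer ones, and the part of list length in this was not tested. In ZBTB7A both replicates held peaks beyond 2 kb. Here 3 and 2 were beyond in DMSO, 2 and 15 under SKBG-1(R), and 3 and 6 under SKBG-1(S).

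**Figure D2:**
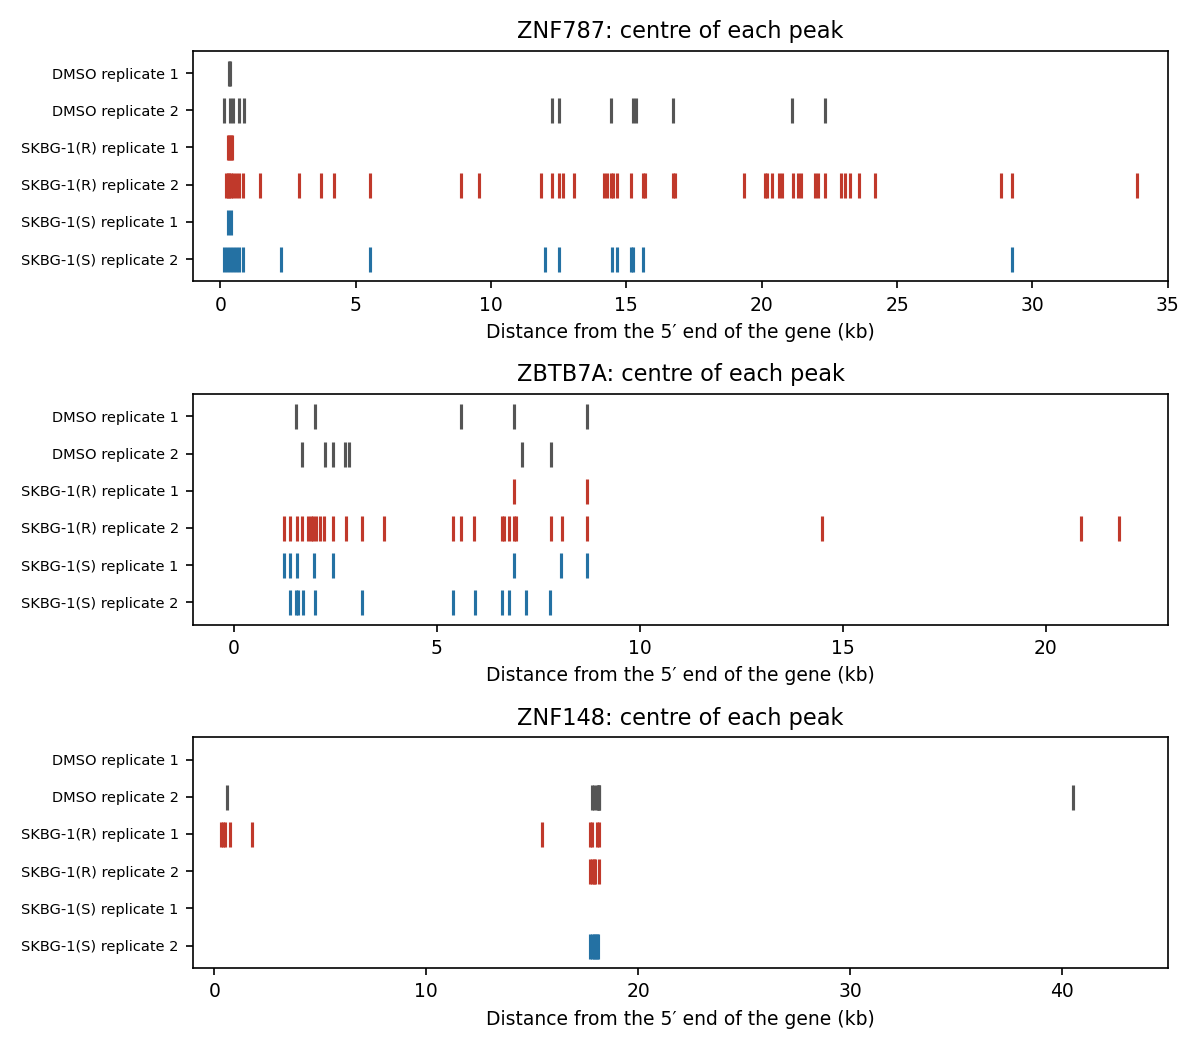
Position of each peak centre in ZNF787, ZBTB7A and ZNF148 as distance from the 5′ end of the gene in kb (x axis), by list (rows). Each tick is 1 peak. ZNF787 peaks of the replicate 1 lists lie within 429 nt of the start, and ZNF148 peaks gather at 2 places.

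In ZNF148, 21 of 29 peaks lay at the inner start, in a stretch of intron and 5′ UTR from 125357168 to 125357656 on chromosome 3. Annotated transcripts begin there at 125357818 and 125357280. DMSO replicate 2 held 6 of these, SKBG-1(R) 4 and 5, and SKBG-1(S) replicate 2 held 6. A second group of 6 peaks lay at the upstream start, from 125373560 to 125375058, where 5 came from SKBG-1(R) replicate 1 and 1 from DMSO replicate 2. SKBG-1(R) replicate 2, the longest list, had 0 there. The contacts at the upstream start thus differed between the replicates of SKBG-1(R). The strongest member peak by −log10 p in any list, at 27.8, was in the inner intron printed first, in SKBG-1(R) replicate 2. Within its list, the best member peak ranked 69 of 1237 by −log10 p in SKBG-1(S) replicate 1 and 851 of 14847 in SKBG-1(R) replicate 2. It ranked 244 of 669 and 86 of 3678 in DMSO replicates 1 and 2. In SKBG-1(R) replicate 1 it was 190 of 1953, and in SKBG-1(S) replicate 2 it was 152 of 3967.

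Merged over lists, member peaks formed 179 regions, of which 118 (65.9%) came from 1 list and 29 (16.2%) from 3 or more, against 9.45% of all 16419 regions. One region was in all 6 lists, in the proximal intron of ZNF787 at chr19:56120739-56121091 (minus strand), 365 nt from the start of the gene. It merged 18 peaks, and for each region the highest log2 enrichment among a list's peaks there is given. Here this was 4.11 and 4.34 in DMSO, 3.93 and 4.04 under SKBG-1(R), and 4.29 and 4.42 under SKBG-1(S). Both SKBG-1(R) values were below the others, while DMSO and SKBG-1(S) overlapped. This was not tested. A proximal intron region of ZBTB2, chr6:151391146-151391228, was in all lists but DMSO replicate 1, at 3.25 in DMSO, 3.98 and 3.69 under SKBG-1(R), and 4.57 and 4.62 under SKBG-1(S). Both SKBG-1(S) values were above the others. The inner intron of ZNF148, chr3:125357483-125357656, was at 4.98 in DMSO replicate 2, 4.16 and 4.76 under SKBG-1(R) and 5.36 in SKBG-1(S) replicate 2. A distal intron region of ZBTB7A, chr19:4059961-4060071, was in DMSO replicate 1 (4.02), both SKBG-1(R) lists (3.56 and 3.52) and SKBG-1(S) replicate 1 (4.14). Regions in 3 lists included ZBTB4 at chr17:7479813-7479898 (3.92 to 4.96) and ZNF710 at chr15:90002198-90002356 (3.52 to 4.30).

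Replicates shared only part of their member peaks. Of the 9 peaks in DMSO replicate 1, 2 (22.2%) overlapped a member peak of replicate 2, and of the 44 in replicate 2, 1 (2.27%) overlapped one of replicate 1. With SKBG-1(R) the shares were 13 of 28 (46.4%) and 13 of 145 (8.97%), and under SKBG-1(S) 10 of 19 (52.6%) and 11 of 75 (14.7%). Lists of different treatment could share more. DMSO replicate 1 overlapped SKBG-1(R) replicate 2 and SKBG-1(S) replicate 1 at 8 of its 9 peaks each (88.9%).

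Within each list, contacts in ZNF and ZBTB genes lay nearer to gene starts than those in the other single genes. The share in proximal introns was higher in 6 of 6 lists, by a mean of 12.2 percentage points ± 4.89 (SD over lists, n = 6). It was 44.4 and 31.8% in DMSO against 35.1 and 22.6% in other genes, 60.7 and 24.8% under SKBG-1(R) against 41.0 and 18.6%, and 52.6 and 45.3% under SKBG-1(S) against 39.4 and 30.04%. The share in 5′ UTRs was higher in 6 of 6 lists, by 6.81 points ± 4.22. The share of peaks within 2 kb after a transcript start was 66.7 and 68.2% in DMSO against 61.7 and 44.2%, 78.6 and 51.0% under SKBG-1(R) against 68.6 and 36.2%, and 78.9 and 72.0% under SKBG-1(S) against 64.4 and 54.2%. The median distance from the 5′ end of the gene was shorter in 6 of 6 lists, with a mean difference of −1.46 ± 0.17 on the log2 scale. It ranged from 729 nt in SKBG-1(R) replicate 1 to 5521 nt in SKBG-1(R) replicate 2, against 2261 and 15521 nt in other genes. The members are also shorter genes, with a median length of 29.1 kb against 55.9 kb for the 1592 others.

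On a scale along the gene from 0 (5′ end) to 1 (3′ end), the median intronic peak of members was nearer the start in 6 of 6 lists, with a mean difference of −0.044 ± 0.031. In DMSO replicate 1 the medians, 0.086 in both sets, were hardly apart. The intronic share was lower in 5 of 6 lists, with a mean difference of −3.97 points ± 4.20, and the median log2 enrichment differed by 0.025 ± 0.11, higher in 3 lists and lower in 3. The lists share genes, so that agreement among them is not agreement among independent genes. These values depended on how genes were weighted. With each gene counted once the difference in log2 distance was −0.64 in place of −1.46, and among ZNF genes alone the difference in intronic position was −0.011 in place of −0.044.

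**Figure D3:**
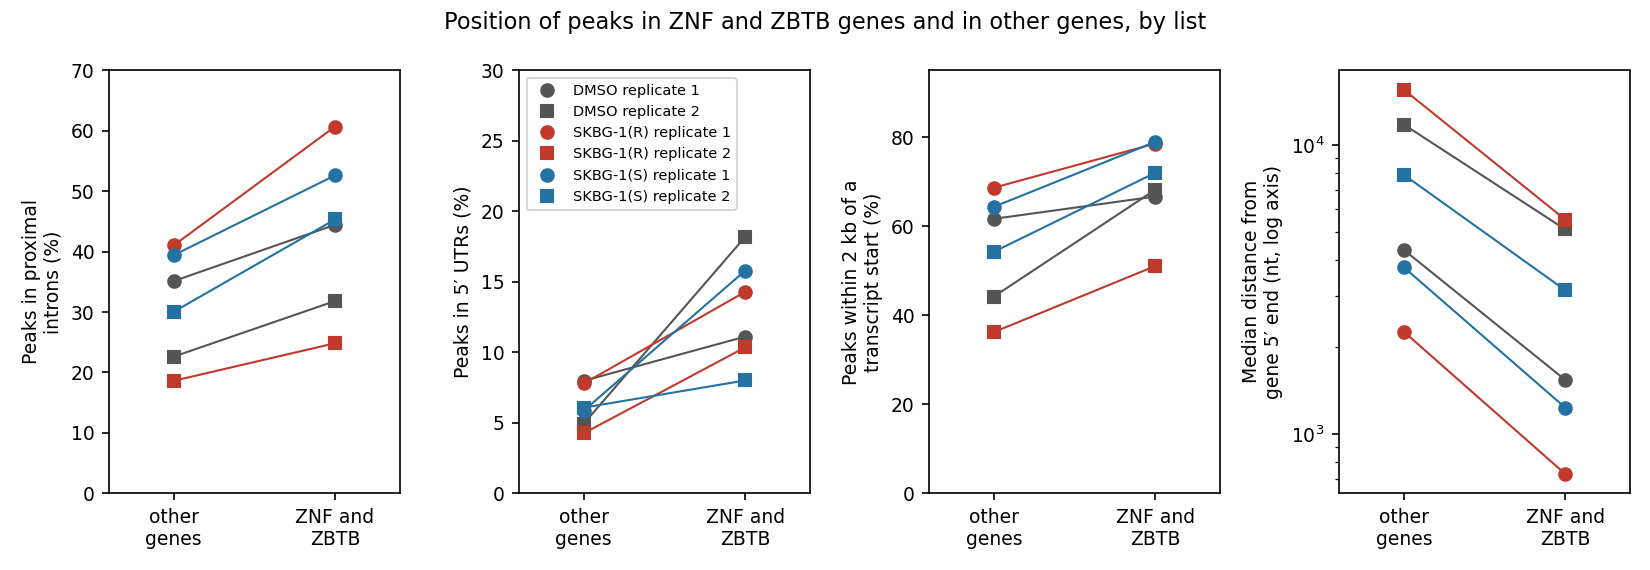
Share of peaks in proximal introns, in 5′ UTRs and within 2 kb after a transcript start (percent), and median distance from the gene 5′ end (nt, log axis), in other single genes and in ZNF and ZBTB genes. Each line joins the values of 1 list. All 6 lines rise in the first 3 panels and fall in the last.

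The comparisons ask whether either stereoisomer altered contacts with these transcripts, and whether the isomers differed. Members made up 1.35% of the peaks in DMSO replicate 1 (95% Wilson interval 0.709 to 2.54) and 1.20% in replicate 2 (0.892 to 1.602). Under SKBG-1(R) they made up 1.43% (0.994 to 2.06) and 0.977% (0.831 to 1.15), and under SKBG-1(S) 1.54% (0.985 to 2.39) and 1.89% (1.51 to 2.36). The intervals cover counting error only. Both SKBG-1(S) values were the highest of the 6, and the SKBG-1(R) values lay on either side of DMSO. The difference of mean log2 percent was 0.43 for SKBG-1(S) against DMSO, −0.10 for SKBG-1(R) against DMSO and −0.53 for SKBG-1(R) against SKBG-1(S). An exact permutation test of 2 lists against 2 cannot pass 0.05, so no p is given. Among ZNF genes alone the second turned to 0.85 and the third to 0.42, so that their sign depended on the members counted. Which genes gave the lower SKBG-1(R) share was not tested. With 1 list left out at a time, the first ranged from 0.28 to 0.58, the second from −0.38 to 0.18 and the third from −0.80 to −0.25. At a log2 enrichment of at least 4 the first was 0.98.

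As a share of genes with a peak, members were 4 of 238 (1.68%) and 13 of 810 (1.605%) in DMSO, 9 of 504 (1.79%) and 22 of 1295 (1.70%) under SKBG-1(R), and 8 of 365 (2.19%) and 18 of 923 (1.95%) under SKBG-1(S). The order of the 3 groups held in both replicates, but the Wilson intervals all overlapped, from 0.655 to 4.26% at the widest. In DMSO 4 members had a peak in both lists, under SKBG-1(R) 8 and under SKBG-1(S) 6. The shorter lists of these groups held 669, 1953 and 1237 peaks, which is the same order. The part of list length was not tested, and no such count over all genes is given here.

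**Figure D4:**
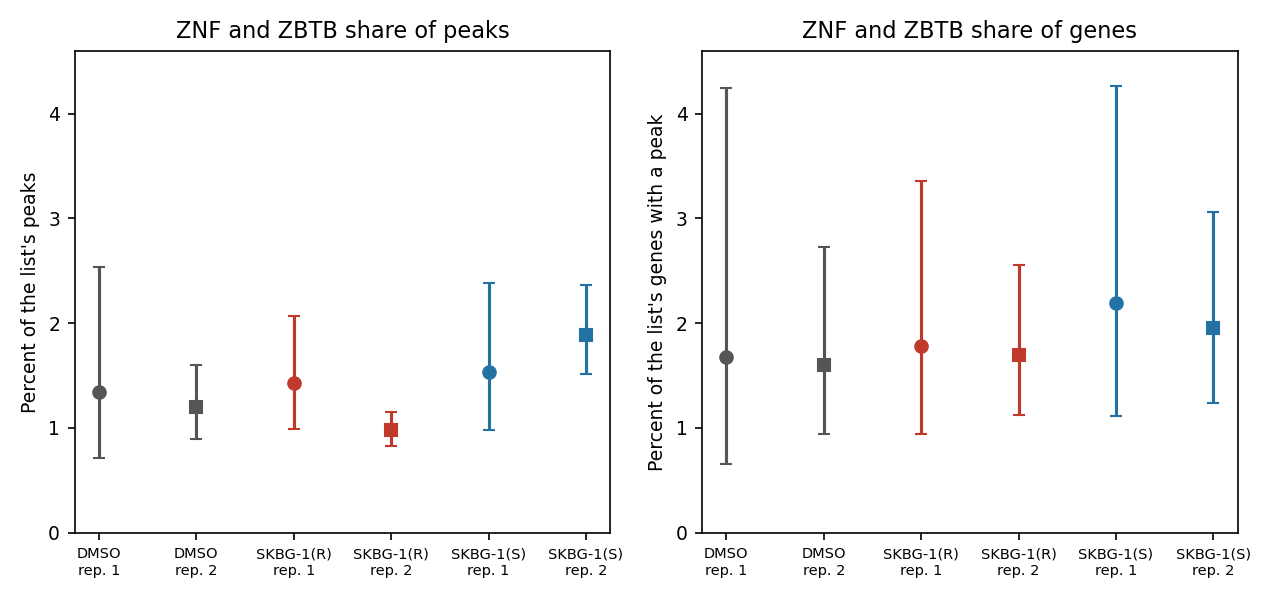
ZNF and ZBTB share of the peaks of each list (left) and of its genes with a peak (right), in percent, with 95% Wilson intervals as bars. The SKBG-1(S) lists, at 1.54 and 1.89% of peaks, are the highest on the left, and the intervals of most lists overlap.

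For SKBG-1(R) against DMSO, limma with Benjamini-Hochberg adjustment called 0 of the 8 tested members and 0 of 479 tested genes (0%), with a smallest adjusted p of 0.993 among members. At an unadjusted p under 0.05 these were 0 members and 15 genes (3.13%). The member with the smallest p was ZBTB1, whose log2 fold change, on the scale of peaks per 10000, was −1.45 ± 1.09 (SE). ZBTB7A was at −1.22 ± 1.01 and ZNF787 at −0.26 ± 0.98. ZNF710 was at 1.13 ± 1.07. All 4 had a limma adjusted p of 0.993. These sizes depended on the prior count. With priors of 0.5 and 5 peaks in place of 2, ZBTB1 was at −2.55 and −0.84 and ZNF710 at 2.04 and 0.65. The lists of the 2 groups did not overlap for 1 member higher under SKBG-1(R), ZNF710, where 10.4% of tested genes were so, and for 2 lower, ZBTB1 and ZBTB7A, where 9.39% were. ZNF710 reached the minimum of 10 peaks only with the SKBG-1(R) lists counted. Its place among the tested genes is thus not independent of this direction. The median of the members was −0.22 and that of all tested genes 0.23. With no scaling to list length these medians were 0.81 and 1.10, and with median-of-ratios scaling 0.15 and 0.47. ZBTB7A turned to 0.46 with no scaling, and ZNF787 to 1.19 and 0.26 under these scalings, while ZBTB1 was at −0.16 with no scaling. ZBTB7A was at −0.35 without DMSO replicate 1 and −2.10 without DMSO replicate 2.

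For SKBG-1(S) against the same DMSO lists, limma called 0 of 8 members and 0 of 479 genes (0%), with a smallest adjusted p of 1. At an unadjusted p under 0.05 these were 0 members and 6 genes (1.25%). ZBTB2 had the smallest p of the members, at 1.72 ± 1.10. With priors of 0.5 and 5 peaks it was at 2.77 and 1.08. ZNF710 was at 0.94 ± 1.07 and ZBTB1 at 0.15 ± 1.09, and all 3 had a limma adjusted p of 1. The groups did not overlap for 2 members that were higher, ZBTB2 and ZNF710, where 13.4% of tested genes were so, and for 0 that were lower, where 4.8% were. Both ZBTB2 and ZNF710 reached the minimum of 10 peaks only with the SKBG-1(S) lists counted, so their being tested is not independent of this direction. The member median was 0.22, against 0.14 for all tested genes.

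The stereoisomers were compared at the same dose and time, 20 µM for 4 h. Limma called 0 of 8 members and 0 of 479 genes (0%), with a smallest adjusted p of 0.995, and 0 members and 5 genes (1.04%) had an unadjusted p under 0.05. For SKBG-1(R) relative to SKBG-1(S), ZBTB1 was at −1.60 (95% interval −3.85 to 0.65), ZBTB7A at −1.40 (−3.49 to 0.69) and ZBTB2 at −1.04 (−3.33 to 1.25), all with a limma adjusted p of 0.995. For these 3 and ZBTB7B, 4 of the 8 members, both SKBG-1(R) lists lay below both SKBG-1(S) lists, where 16.3% of tested genes did so. For 0 members they lay above, where 6.26% did. ZBTB1, ZBTB2 and ZBTB7B reached the minimum of 10 peaks only with the SKBG-1(S) lists counted, so their being tested is not independent of this direction. The member median was −0.66 and that of all genes −0.08, and with no scaling they were 0.09 and 0.75. With no scaling ZBTB1 was at −0.50, ZBTB7A at −0.11 and ZBTB2 at −0.16. ZBTB2 was at −0.48 without SKBG-1(R) replicate 2, and ZBTB7A at −0.93 without SKBG-1(S) replicate 1. The narrowest interval of a member reached 2.04 on the log2 scale, or 4.11-fold, to each side, so that these intervals do not show that the isomers act alike.

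**Figure D5:**
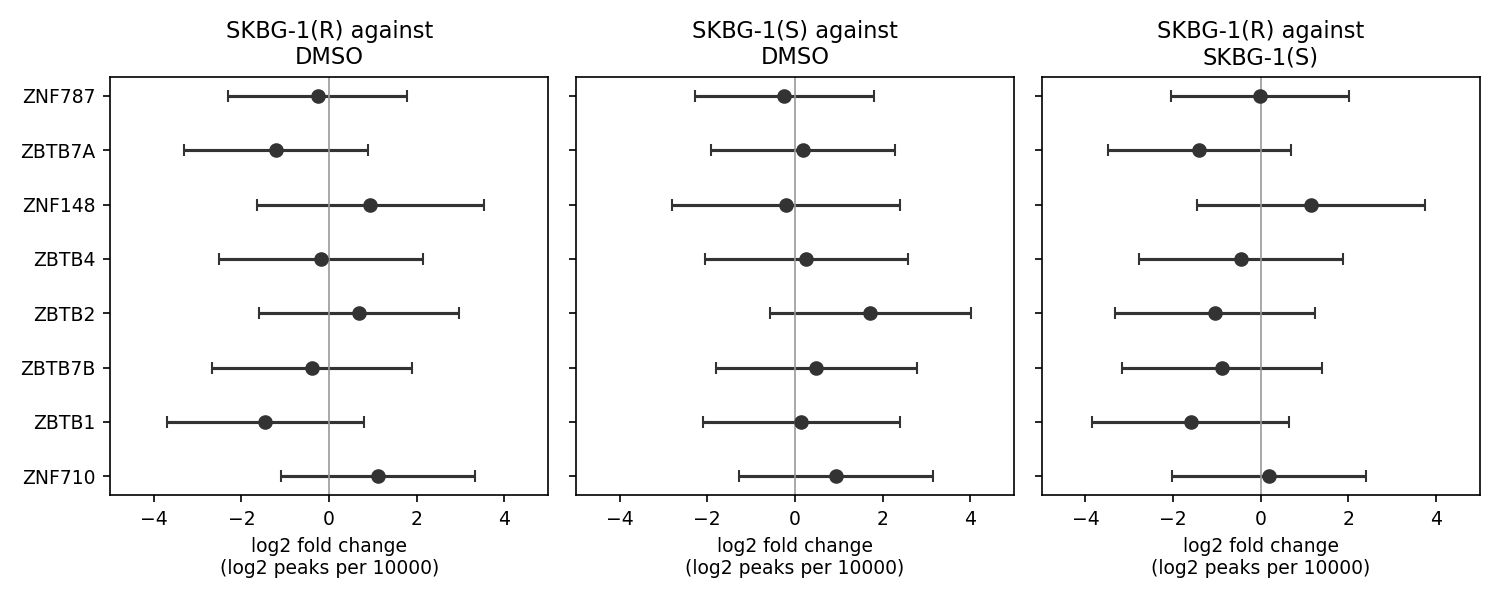
Log2 fold change in peaks per 10000 (x axis) of the 8 tested members in the 3 comparisons, with 95% limma intervals as bars. Every interval includes 0, and the points run from −1.60 to 1.72.

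Genes of corepressor machinery described for BTB and KRAB zinc-finger proteins were also contacted. Most members had no KRAB pattern, and whether member proteins recruit this machinery in these cells was not tested. Expression was not measured, and of all 19951 coding genes 7.09% held a peak. Of 26 corepressor and ligase genes of BTB zinc-finger proteins, 14 held peaks. CTBP1, which encodes a corepressor, held 197 (2 and 35 in DMSO, 2 and 119 under SKBG-1(R), 14 and 25 under SKBG-1(S)). BCOR held 171 (5 and 47, 3 and 81, 7 and 28), and CTBP2 120. Limma called 0 of the 10 tested in each comparison, with medians of −0.16, 0.25 and −0.01 for SKBG-1(R) against DMSO, SKBG-1(S) against DMSO and between the isomers, against 0.23, 0.14 and −0.08 for all genes. Of 26 genes of the KRAB corepressor machinery 5 held peaks, DNMT3A, a DNA methyltransferase, with 23, and DNMT1 and UHRF1 with 2 each. DNMT3A was the 1 tested and was not called.

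Of 136 genes in a list of other C2H2 zinc-finger factors, 16 held peaks. ZFPM1, a cofactor of GATA factors, held 289. The longest list, SKBG-1(R) replicate 2, alone gave 247 of these. CASZ1 held 162. EHMT1, a histone methyltransferase that the list also holds though it is no C2H2 factor, had 108. Limma called 0 of the 10 tested in each comparison, with medians of −0.32, −0.68 and −0.14 in the same order.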

How the data were processed

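NONO eCLIP of 22Rv1 cells gave 12 libraries and 6 peak lists, 1 per replicate. Sample titles gave the group and replicate of each list. The submitters' processing notes name cutadapt 1.9 and STAR 2.4.0i, and no source used here names the peak caller. The values the authors deposited per peak are a −log10 p and a log2 enrichment, each for the immunoprecipitation relative to input, used to describe, rank or filter peaks within a list. Each peak carries the authors' gene and class of region. Positions are GRCh38, with genes from GENCODE 29. A peak counted for a gene when named for that gene alone. Members and gene lists were chosen with earlier results of these data known.

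Peaks per 10000 peaks of the list, as log2 with a prior count of 2 scaled to list length, were tested by limma 3.58.1 (R 4.3.3; trended prior variance) on all 6 lists and 479 genes with at least 10 peaks, with Benjamini-Hochberg adjustment at 0.05. This test was also run on simulated lists drawn independently of each other, unlike the same-numbered lists here. That run is not used as support. Other family values are given as differences by list, without p, since the members were chosen with results in view. The rule for naming was members with at least 10 peaks or in both lists of every group. Other members are named as examples or to list a count, outside this rule. Fold changes are given, per comparison, for up to 3 members higher and 3 lower with the smallest p among those with 1 direction in both pairs of equal number. Finger and KRAB patterns were searched in GENCODE coding sequences. The KRAB pattern replaced a stricter one after results of that one were seen. It matched 287 family genes against 263, but not all of the 263. Alternatives were stricter peak limits, equal list lengths, joined peaks, joint names, other priors, minimums, scalings and summed widths, a replicate block and each list left out.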

Additional observations from a re-analysis of the deposited data

How the results depend on the processing

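Limma called 0 members in all 3 comparisons under each alternative. Its count of all genes for SKBG-1(R) against DMSO went from 0 to 1 with peaks within 50 nt joined, with at least 5 peaks, with widths summed and with the replicate block. In both comparisons with SKBG-1(R) the count also moved with 1 list left out, most without SKBG-1(R) replicate 1. There replicate 2, with 14847 peaks, alone stood for the group. Such a fit has no spread within that group, so its counts are not given. For SKBG-1(S) against DMSO the count stayed at 0, and between the isomers it was 0 under the other alternatives. Same-numbered lists deviated together (correlations over 479 genes of 0.541, 0.577 and 0.422), but the labels do not say what a number shares, and with the block the smallest member adjusted p over the 3 comparisons was 0.566. At an unadjusted p under 0.05 the block gave 38, 23 and 33 genes for SKBG-1(R) against DMSO, SKBG-1(S) against DMSO and between the isomers, with 0, 1 (ZBTB2) and 1 (ZBTB1) members.

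Among named fold changes, for SKBG-1(R) against DMSO ZBTB7A turned to 0.46 with no scaling, and ZNF787 to 1.19 with no scaling, 0.26 with median of ratios and −0.50 to 0.045 with each list left out, the last without SKBG-1(R) replicate 1. For SKBG-1(S) against DMSO ZBTB1 turned to −0.27 with peaks joined and was −0.16 to 0.47 with each list left out (−0.16 without DMSO replicate 2, −0.11 without SKBG-1(S) replicate 1). The family share of peaks for SKBG-1(R) against DMSO turned to 0.18 at a log2 enrichment of at least 4, 0.067 at a −log10 p of at least 5 and 0.85 in ZNF genes alone, and went from −0.38 to 0.18 with each list left out. Its share of genes turned to −0.12 at the stricter p and −0.043 with joint names. Between the isomers ZNF genes alone gave 0.42 for peaks and 0.023 for genes.

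The member minus other differences in proximal intron share (points) were 28.2 at log2 4, 31.0 with equal list lengths, 6.76 with peaks joined, 22.7 in ZNF genes alone, 10.01 without ZNF787, 8.04 with each gene counted once and 10.7 to 13.3 with each list left out. In the same order the 5′ UTR share was 1.59, 6.58, 6.08, 7.36, 10.6 and 4.51, and 5.52 to 7.78. Intronic position was −0.036, −0.035, −0.049, −0.011, −0.044 and −0.023, and −0.053 to −0.034, and −0.018 with joint names. Log2 distance was −1.86, −1.85, −1.79, −1.29, −1.43 and −0.64, and −1.51 to −1.42. All of these kept their direction. With equal lengths SKBG-1(R) replicate 2 held no member in the comparison, so 5 lists remained. The intronic share turned to 1.19 at log2 4 and was −8.34 with joint names, −8.04 without ZNF787, −0.072 with each gene counted once and −5.06 to −2.83 with each list left out. The median log2 enrichment turned to −0.035 at log2 4, −0.080 at the stricter p, −0.011 with peaks joined and −0.0072 without ZNF787, and was −0.0020 to 0.047 with each list left out. The cause was not tested. Motifs were not searched, since no genome was used here. The stricter KRAB pattern, tried first and replaced after its results were seen, gave 3 of 263 genes with a peak (1.14%). Short lists, down to 669 peaks, limit every value.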
